A study of Homo sapiens with 26 samples.

Results

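The genes described here are the 6 protein-coding genes of human mitochondrial DNA that lie outside complex I: MT-CO1, MT-CO2, MT-CO3, MT-CYB, MT-ATP6 and MT-ATP8. The rule picks them by symbol. All 6 were found, each as 1 transcript, among the 19478 transcripts of each of 4 count tables. The other 7 of the 13 mitochondrially encoded mRNAs, MT-ND1 to MT-ND6 and MT-ND4L, encode complex I subunits and serve only for comparison.

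The measurement was ribosome profiling, in which mRNA fragments shielded by ribosomes are sequenced and counted per coding sequence. It covered 26 libraries from 3 human cell lines: HEK293T and HEK293FT, both derived from embryonic kidney, and K562, a chronic myeloid leukaemia line. In all libraries cells were lysed in cycloheximide, lysates were digested with RNase I and monosomes were collected by ultracentrifugation, per the labels' protocols. The libraries differed in how ribosomal RNA fragments were removed and in the fragment sizes selected.

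HEK293T libraries with fragments of 15 to 35 nt were undepleted or treated with legacy Ribo-Zero Gold, RiboCop or NEBNext, 2 libraries each. A K562 size-selection set held 1 undepleted and 1 NEBNext library at 20 to 34 nt, and 1 of each at 20 to 60 nt. A K562 kit set, all at 20 to 34 nt, held 2 libraries each of undepleted, Qiagen FastSelect, riboPools and riboPools with cold elution. It also held 1 library each of Ribo-Zero Plus alone, with oligos, with formaldehyde and with both. HEK293FT had 1 undepleted and 1 custom oligo library at 15 to 35 nt. The titles of the undepleted K562 size-selection libraries contradict their depletion field, which names NEBNext, and they were grouped by title. As background, Ribo-Zero Gold, RiboCop and riboPools pull ribosomal fragments out on beads and FastSelect blocks their reverse transcription, whereas NEBNext and Ribo-Zero Plus cut them with a nuclease directed by DNA probes.

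Total counts ran from 120019 to 421521 per library in HEK293T, from 46858 to 441249 in the K562 size-selection set, from 116742 to 5795774 in the K562 kit set, and were 900763 and 5747772 in HEK293FT. A list of 10 erythroid markers summed to between 11044 and 11738 CPM in the undepleted K562 libraries and to at most 1 count in any undepleted HEK library. A list of 5 embryonic kidney line markers had 0 counts in every undepleted K562 library and summed to between 213 and 613 CPM in the HEK lines. PAX2 was at 0 in HEK293FT, and PAX2, LHX1 and SOX11 were at 0 in 1 of the HEK293T libraries. Nothing in the labels says that replicate libraries came from separate cultures, so p-values measure only the spread between libraries, which may be technical.

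MT-CO1, MT-CO2 and MT-CO3 form the catalytic core of cytochrome c oxidase, complex IV of the respiratory chain, which passes electrons to oxygen and pumps protons. MT-CYB is the haem-bearing membrane subunit of complex III, and MT-ATP6 and MT-ATP8 belong to the membrane part of ATP synthase, complex V, which lets those protons flow back. The mRNAs never leave the mitochondrion and are read there by mitochondrial ribosomes, which cycloheximide does not stop, while the remaining subunits of the same complexes are made in the cytosol from nuclear genes.

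Several features of the coding sequences bear on how footprints can be counted. MT-ATP8 and MT-ATP6 lie on 1 mRNA and their reading frames overlap by 46 bases. The overlap is shown because a footprint there can belong to either gene (GENCODE 29, GRCh38, plus strand, chrM:8527-8572), with the MT-ATP6 start codon and the MT-ATP8 stop codon in capitals.
MT-ATP8 and MT-ATP6 overlap: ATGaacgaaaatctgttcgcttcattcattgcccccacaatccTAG
The last bases of 3 coding sequences are shown next because they mark the other departures from nuclear genes, with the final codon or the part of it that the annotation holds in capitals (plus strand, chrM:7422-7445, chrM:9966-9990 and chrM:15863-15887).
MT-CO1 coding end: gaacccgtatacataaaatctAGA
MT-CO3 coding end: gtctccatctattgatgagggtctT
MT-CYB coding end: gaaaacaaaatactcaaatgggccT
MT-CO1 ends in AGA, an arginine codon in the nuclear code that serves as its stop in mitochondria. MT-CO3 and MT-CYB end 1 base after the last whole codon, with a lone T that becomes a stop codon once the poly(A) tail is added. MT-ATP6 ends on the base at which MT-CO3 begins (chrM:9207).

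All 6 coding sequences were poor in G, at between 6.28% of bases in MT-ATP8 and 16.2% in MT-CO1, against a median of 26.6% over 18948 annotated transcripts of the tables. At most 0.23% of those transcripts had a G content as low as that of any of the 6. Coding lengths were 1542 bases for MT-CO1 (chrM:5904-7445), 684 for MT-CO2 (chrM:7586-8269), 784 for MT-CO3 (chrM:9207-9990), 1141 for MT-CYB (chrM:14747-15887), 681 for MT-ATP6 (chrM:8527-9207) and 207 for MT-ATP8 (chrM:8366-8572). A nuclear copy of 5 of them lies in 1 block on chromosome 1. The full-length copies of MT-ATP8, MT-ATP6, MT-CO2 and MT-CO1 differ from them at 5, 10, 14 and 21 positions, and a 547-base copy of MT-CO3 differs at 10. Of the 28-base words of MT-CO1, 70.8% also occur in another annotated transcript, as do 65.8% for MT-ATP6, 54.2% for MT-CO2, 48.9% for MT-ATP8, 48.1% for MT-CO3 and 7.09% for MT-CYB. For 20-base words the share ran from 20.5% for MT-CYB to 82.5% for MT-CO1. How reads matching several places were counted is not given in the sources used here. The levels of all 6 are uncertain to that extent, least for MT-CYB, and the part of such reads in the results was not tested.

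Together the 6 mRNAs took from 0.236% to 2.71% of the counted footprints of a library. The share was lowest in HEK293T, at 0.339% ± 0.024 (SD, n = 2) undepleted, against 0.710% in the undepleted HEK293FT library and 1.23% ± 0.021 (SD, n = 2) in the undepleted K562 kit set. The undepleted K562 size-selection libraries held 1.56% (exact 95% binomial interval 1.504% to 1.616%) at 20 to 34 nt and 1.71% (1.59% to 1.83%) at 20 to 60 nt. These intervals cover counting error only, since PCR copies are not independent molecules. With NEBNext the 2 HEK293T libraries held 0.382% and 0.531%, above the 0.322% and 0.356% undepleted, and with Ribo-Zero Gold 0.236% and 0.253%, below them. The K562 NEBNext libraries held 2.67% at 20 to 34 nt and 2.42% at 20 to 60 nt, ratios of 1.71 and 1.42 to the undepleted libraries. In the K562 kit set the share was 1.20% ± 0.069 (SD, n = 2) with FastSelect, 1.37% ± 0.066 with riboPools, 1.46% ± 0.032 with cold elution, 1.56% with Ribo-Zero Plus alone and 2.60% and 2.71% with formaldehyde and with both additions. Custom oligos in HEK293FT went with 0.889%. Because counts are shares of a library, more footprints on these mRNAs and fewer on all others cannot be told apart.

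**Figure D1:**
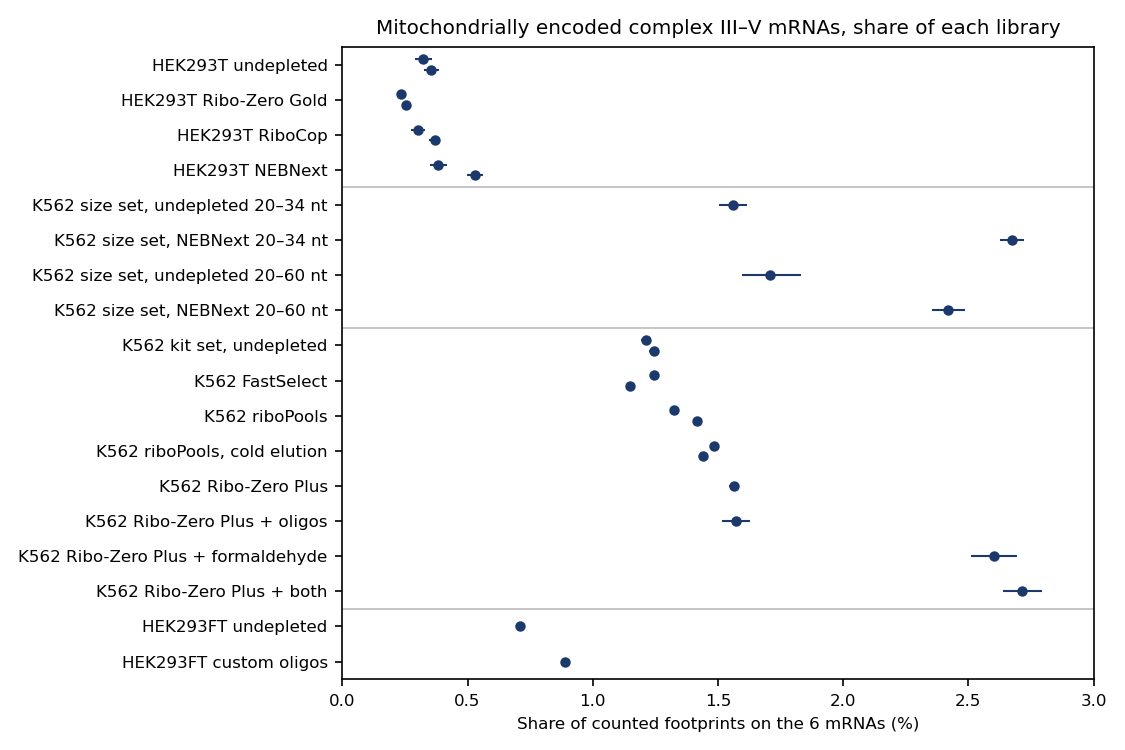
Share of each library's counted footprints that fell on the 6 mRNAs, in percent, with 1 point per library and exact 95% binomial intervals as bars; grey lines separate the HEK293T, K562 size-selection, K562 kit and HEK293FT tables. All HEK293T libraries lie at or below 0.531%, and the 4 libraries above 2.4% are the NEBNext libraries of K562 and the formaldehyde libraries of Ribo-Zero Plus.

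Levels per kilobase of coding sequence put the genes in different orders, both between the cell lines and between the undepleted K562 sets. In the undepleted K562 kit set MT-ATP8 stood highest, at 4775 ± 212 CPM per kilobase (SD, n = 2), followed by MT-CO3 at 3861 ± 37.1, MT-CO2 at 2615 ± 12.6, MT-ATP6 at 2502 ± 44.5, MT-CO1 at 2216 ± 32.6 and MT-CYB at 1195 ± 43.6. The libraries did not overlap between any neighbours in that order. The undepleted K562 size-selection libraries, 1 per size range, had other orders. At 20 to 34 nt MT-CO1, at 3013 CPM per kilobase, stood above MT-ATP6, at 2864. At 20 to 60 nt MT-CO3, at 5635, stood above MT-ATP8, at 5052, and MT-CO1, at 3598, above MT-CO2, at 3494. In undepleted HEK293T the order was MT-CO1 at 944 ± 51.4, MT-CO3 at 889 ± 35.1, MT-ATP8 at 727 ± 174, MT-CO2 at 497 ± 65.3, MT-CYB at 470 ± 86.4 and MT-ATP6 at 311 ± 6.99 CPM per kilobase (SD, n = 2). There the libraries overlapped between the neighbours MT-CO1 and MT-CO3 and between MT-CO2 and MT-CYB, and MT-ATP8 rested on 15 and 27 counts. In the single undepleted HEK293FT library the order was MT-ATP8 at 3148, MT-CO2 at 2198, MT-CO3 at 1585, MT-CO1 at 1281, MT-ATP6 at 1139.5 and MT-CYB at 836 CPM per kilobase.

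All 6 mRNAs were higher in undepleted K562 than in undepleted HEK293T. The 2 K562 kit libraries had 1682 and 1725 CPM of MT-ATP6, the ATP synthase subunit that lines the proton channel, against 208 and 215 CPM in HEK293T. MT-CO2, which carries the copper centre that first takes electrons from cytochrome c, had 1783 and 1795 CPM against 308 and 371. MT-CO1, which holds the site of oxygen reduction, had 3382 and 3453 CPM against 1399.8 and 1512. In all 6 both K562 libraries lay above both HEK293T ones, as for 34.7% of genes averaging 10 or more counts. By edgeR's quasi-likelihood test the log2 fold change was 3.12 ± 0.14 (SE) for MT-ATP6 (adjusted p = 6.04e-106), 2.80 ± 0.17 for MT-ATP8 and 2.49 ± 0.12 for MT-CO2. It was 2.24 ± 0.09 for MT-CO3, 1.43 ± 0.11 for MT-CYB and 1.34 ± 0.07 for MT-CO1 (adjusted p = 3.81e-71). All 6 were thus called higher, where 22.5% of the 5551 genes tested were called higher, 23% lower and 45.5% in either direction. The 6 stayed called, between 1.19 and 3.28, under every alternative in scaling, filter, tool, libraries left out and choice of K562 table. Cell line and table cannot be told apart here, since each line was prepared in its own set and K562 fragments were cut at 20 to 34 nt.

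HEK293FT and HEK293T, which share an origin and the fragment range, also differed in all 6 genes. MT-CO2 had 1503 CPM in the undepleted HEK293FT library against 308 and 371 CPM in HEK293T, which edgeR put at 2.26 ± 0.13 (SE) on the log2 scale (adjusted p = 2.09e-59). MT-ATP8 followed with 652 CPM against 125 and 176, and MT-ATP6 with 776 against 208 and 215 (log2 fold changes of 2.21 ± 0.20 and 2.0006 ± 0.17). The other 3 were closer: MT-CO3 at 0.97, MT-CYB at 0.94 and MT-CO1 at 0.56 on the log2 scale, all with an edgeR adjusted p of at most 7.65e-09. Of all genes tested 5.12% were called higher, 2.9% lower and 8.02% in either direction. HEK293FT entered with 1 library, which is assumed to vary like the other groups, and line and table again cannot be told apart.

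The undepleted K562 libraries at 20 to 34 nt of both tables were also compared, with 1 library in the size-selection set, which is assumed to vary like the others. MT-CO1 had 4647 CPM in the size-selection set against 3382 and 3453 CPM in the kit set (log2 fold change 0.44 ± 0.06 SE, edgeR adjusted p = 8.38e-09), MT-CO2 differed by 0.37 (adjusted p = 0.00699) and MT-CO3 by 0.31 (adjusted p = 0.00477). The other 3 differed by 0.20 to 0.33 and were not called, while 0.18% of all genes were called higher and 0.054% lower, 0.234% in all. With DESeq2 the calls of MT-CO2 and MT-CO3 were lost.

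**Figure D2:**
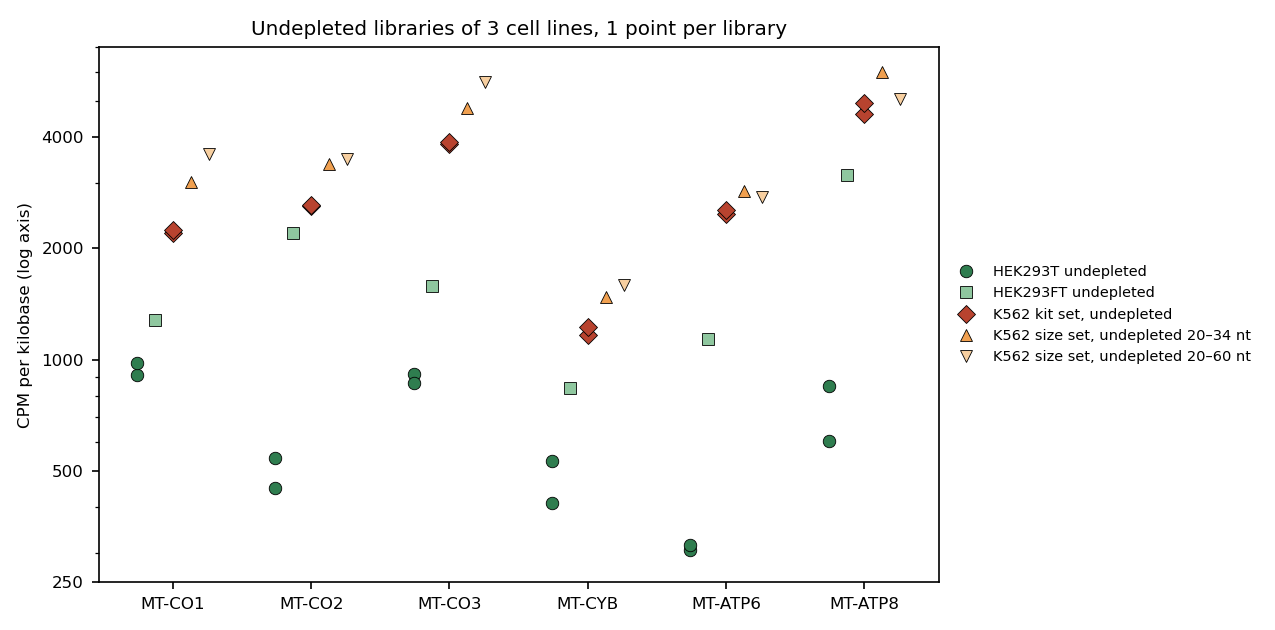
CPM per kilobase of coding sequence (log axis) of the 6 mRNAs in the 7 undepleted libraries, with 1 point per library and no error bars. For each mRNA both HEK293T points lie lowest and the HEK293FT point lies between them and every K562 point.

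**Figure D3:**
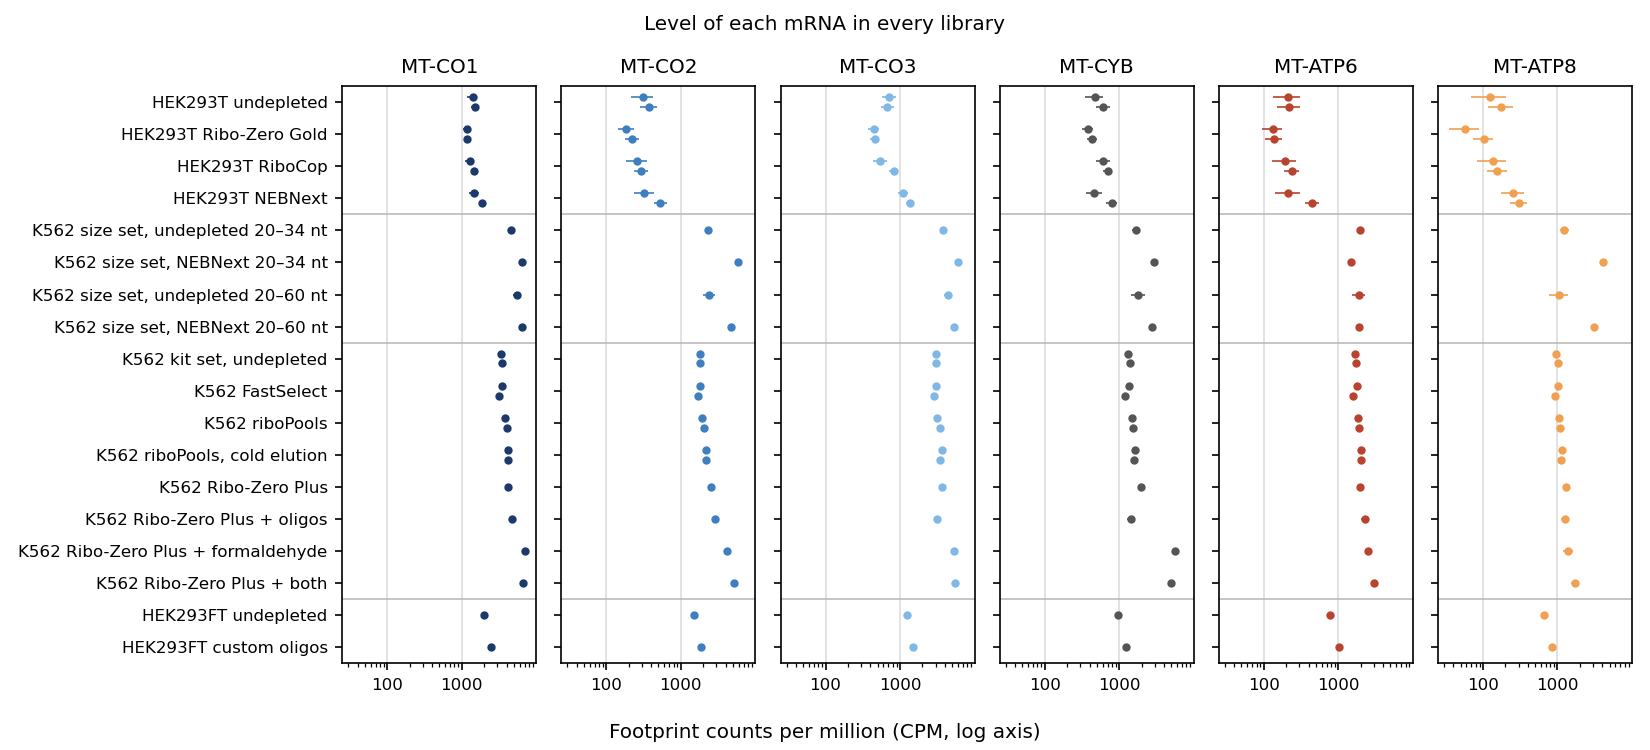
CPM (log axis) of each mRNA in all 26 libraries, with exact 95% Poisson intervals as bars, which cover counting error only; grey lines separate the 4 tables. The K562 NEBNext libraries stand at 4070 and 3064 CPM of MT-ATP8 against at most 1720 CPM in any other library, and the formaldehyde libraries of Ribo-Zero Plus at 5551 and 5032 CPM of MT-CYB.

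With Ribo-Zero Gold in HEK293T MT-CO3 fell, and the other 5 mRNAs stood lower without passing the test. MT-CO3, the third core subunit of cytochrome oxidase, had 441 and 455 CPM with Ribo-Zero Gold against 717 and 678 CPM undepleted (log2 fold change -0.63 ± 0.14 SE, edgeR adjusted p = 0.026). Of the 4410 genes tested, 0.068% were called lower. For all 6 mRNAs both Ribo-Zero Gold libraries lay below both undepleted ones, as did 17.4% of genes averaging 10 or more counts. MT-ATP8 had 56.9 and 102 CPM against 125 and 176, MT-CO2 had 185 and 221 against 308 and 371, and MT-ATP6 had 131 and 138 against 208 and 215. Their log2 fold changes were -0.91, -0.75 and -0.66, with edgeR adjusted p-values of 0.464, 0.242 and 0.709. MT-CYB and MT-CO1 differed by -0.41 and -0.32 and were not called. The MT-CO3 call was lost with no filter (adjusted p = 0.259), with DESeq2 (1) and on leaving out any 1 of the 4 libraries (0.139 to 0.395).

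RiboCop, the other bead kit in this line, left no mRNA of the 6 called, with 0% of all genes called and 195 of 4410 genes at an unadjusted p under 0.05; DESeq2 called 0 of the 6 as well. Log2 fold changes ran from -0.30 ± 0.21 (SE) for MT-CO2 to 0.29 ± 0.16 for MT-CYB. MT-CO3 shows the spread behind these values, with 544 and 819 CPM in the RiboCop libraries on either side of the 717 and 678 CPM undepleted. Leaving out 1 library turned the sign of the small differences of MT-CO1, MT-CO3, MT-ATP6 and MT-ATP8.

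NEBNext raised MT-CO3 and MT-ATP8 in HEK293T. MT-CO3 had 1103 and 1358 CPM with NEBNext against 717 and 678 CPM undepleted, which edgeR put at 0.86 ± 0.13 (SE) on the log2 scale (adjusted p = 3.57e-08). MT-ATP8, the short accessory subunit of ATP synthase, had 255 and 303 CPM against 125 and 176 (log2 fold change 0.90 ± 0.27, adjusted p = 0.0283). Both NEBNext libraries lay above both undepleted ones only for these 2 of the 6, as for 23.2% of genes averaging 10 or more counts. Of all genes 1.5% were called higher, 1.75% lower and 3.24% in either direction. In the other 4 mRNAs the lower NEBNext library was not above both undepleted ones. MT-ATP6 had 210 and 443 CPM against 208 and 215 (log2 fold change 0.73, adjusted p = 0.0645), MT-CYB 465 and 791 against 467 and 606, and MT-CO2 323 and 532 against 308 and 371. The NEBNext library with the higher levels was the same in all 6. Without it the log2 fold changes of MT-CO2, MT-CYB and MT-ATP6 turned to -0.09, -0.22 and -0.01, and without the other NEBNext library 4 of the 6 were called. MT-CO3 stayed called under all 10 alternatives, at 0.67 to 0.985. MT-ATP8 lost its call in 5 of them: no filter (adjusted p = 0.0918), DESeq2 (0.27), without either undepleted library (0.372 and 0.0785) and without the higher NEBNext library (0.418).

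Set directly against Ribo-Zero Gold, NEBNext gave higher levels of all 6 mRNAs. The log2 fold changes were 1.81 ± 0.24 (SE) for MT-ATP8, 1.495 ± 0.12 for MT-CO3, 1.38 ± 0.21 for MT-ATP6, 1.14 ± 0.18 for MT-CO2, 0.70 ± 0.14 for MT-CYB and 0.56 ± 0.09 for MT-CO1. All passed with an edgeR adjusted p of at most 5.98e-05, where 2.24% of all genes were called higher, 1.84% lower and 4.08% in either direction. Without the higher NEBNext library only MT-CO3 and MT-ATP8 were called, and with DESeq2 the MT-CYB call was lost (adjusted p = 0.0646).

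In K562, NEBNext changed the 6 mRNAs unequally, raising 5 and leaving MT-ATP6 without a call. MT-ATP8 had 4070 CPM against 1241 undepleted at 20 to 34 nt and 3064 against 1046 at 20 to 60 nt, which edgeR put at 1.71 ± 0.15 (SE) on the log2 scale (adjusted p = 1.1e-25). MT-CO2 had 5768 against 2318 CPM and 4712 against 2390 at the 2 size ranges (log2 fold change 1.24 ± 0.14, adjusted p = 2.56e-16). MT-CYB rose by 0.79 ± 0.14 (adjusted p = 9.45e-06) and MT-CO3 by 0.55 ± 0.13 (adjusted p = 0.00219). MT-CO1 rose by 0.41 ± 0.13 (adjusted p = 0.0464), a call that was lost with DESeq2's size factors, with scaling to total counts, with DESeq2's test and with no term for size (adjusted p = 0.0686 to 0.117). For these 5 mRNAs each NEBNext library stood above both undepleted ones, as for 20.8% of genes averaging 10 or more counts. Of all 3715 genes 1.75% were called higher, 0.969% lower and 2.72% in either direction.

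MT-ATP6, translated from the same mRNA as MT-ATP8, had 1498 CPM with NEBNext against 1950.1 undepleted at 20 to 34 nt, a ratio of 0.768 (exact 95% interval 0.675 to 0.875, counting error only). At 20 to 60 nt it had 1923 against 1878 CPM, a ratio of 1.02 (0.81 to 1.31). Its log2 fold change over both sizes was -0.17 ± 0.15 (SE, edgeR adjusted p = 0.682), and it was above 0, at 0.10 and 0.13, without either of the 20 to 34 nt libraries. For MT-ATP8 the same 2 ratios were 3.28 (2.86 to 3.77) and 2.93 (2.19 to 4.005). Ratios above 1 were found for 5 of the 6 at 20 to 34 nt and for all 6 at 20 to 60 nt, beside 52.4% and 54.5% of genes averaging 100 or more counts. Of such genes 83.7% and 49.2% had a ratio as high as that of MT-ATP6, the lowest of the 6. This fit rests on 4 libraries with 1 residual degree of freedom, and with 1 library left out no test remains. The 2 size ranges stand in for replicates, with 1 library per depletion and size. The p-values of NEBNext in K562 thus measure no spread between replicate libraries. Between the 2 size ranges themselves 0 of the 6 differed by edgeR or DESeq2, where 0.162% of all genes were called, 0.0808% in each direction, and 227 had an unadjusted p under 0.05.

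Whether NEBNext acted differently in the K562 size-selection set and the HEK293T set was tested as an interaction, and 0 of the 6 passed. These sets differ in fragment range and preparation as well as in line, which the test does not separate. Of 4736 genes, 392 had an unadjusted p under 0.05. Among the 6 the unadjusted edgeR p was 0.00083 for MT-CO2, 0.0045 for MT-ATP6, 0.0099 for MT-ATP8 and 0.024 for MT-CYB. It was 0.15 for MT-CO3 and 0.20 for MT-CO1. The 2 interactions farthest from 0 were 0.88 ± 0.25 (SE) for MT-CO2 (edgeR adjusted p = 0.132) and -0.875 ± 0.30 for MT-ATP6 (adjusted p = 0.32). MT-ATP8 was at 0.84 ± 0.32 (adjusted p = 0.418). With no filter on low counts the MT-CO2 interaction was called (1.04, adjusted p = 0.019), whereas DESeq2 called 0 of the 6. Of all genes, 0.296% were called in this test.

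Differences with FastSelect and riboPools were small and alike across the 6 mRNAs. With FastSelect the 6 differed from undepleted by -0.09 to -0.03 on the log2 scale and 0 were called by edgeR or DESeq2, where 0.0205% of the 9761 genes were called, 0.0102% in each direction, and 552 had an unadjusted p under 0.05. MT-CO1 had 3464 and 3194 CPM with FastSelect, on either side of the 3382 and 3453 CPM undepleted, and the libraries overlapped for all 6. Without the higher FastSelect library MT-CYB was called lower (-0.19, adjusted p = 0.0402), and without the lower one the differences of 5 of the 6 turned to between 0.006 and 0.063.

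With riboPools all 6 mRNAs were higher in both libraries than in both undepleted ones, as were 18.8% of genes averaging 10 or more counts. MT-CO1 had 3778 and 4065 CPM (log2 fold change 0.20 ± 0.03 SE, edgeR adjusted p = 5.15e-08). MT-CO2, MT-CO3 and MT-ATP6 rose by 0.15, 0.14 and 0.15 (adjusted p = 0.00966, 0.00448 and 0.0346), while MT-CYB and MT-ATP8, at 0.15 and 0.12, were not called. Of all genes 0.0717% were called higher, 0.0102% lower and 0.082% in either direction. With cold elution all 6 rose, by 0.28 ± 0.03 for MT-CO1, with 4201 and 4127 CPM, down to 0.19 ± 0.04 for MT-ATP8, with 1154 and 1106 CPM against 957 and 1019. The adjusted p was at most 0.00087, and 0.143% of all genes were called higher, 0.082% lower and 0.225% in either direction. Both cold elution libraries lay above both undepleted ones for all 6, as for 20.7% of genes averaging 10 or more counts. Cold against standard elution differed by 0.07 to 0.12 and only MT-CO2 was called (adjusted p = 0.0134), with 0.0102% of all genes called higher and 0.0307% in either direction.

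These small differences were sensitive to the estimate of the spread. In a fit of all 12 libraries of the table, which includes the additions to Ribo-Zero Plus, 0 of the 6 were called for riboPools, cold elution or their difference, although the log2 values stayed near theirs, at 0.12 to 0.196 for riboPools and 0.189 to 0.28 for cold elution. DESeq2 called 1 of the 6 for riboPools and 0 for cold against standard elution. The riboPools count was 1 without the first undepleted library and 0 without the second riboPools library. Without the second undepleted or the first riboPools library MT-CYB was called as well (adjusted p = 0.0235 and 0.0352). The MT-ATP8 call with cold elution was lost with DESeq2 (adjusted p = 0.0641) and without the first undepleted or the first cold library, and that of MT-CYB with DESeq2 (0.39). The MT-CO2 difference between elutions was lost without the first riboPools library and without either cold library (adjusted p = 0.0518 to 0.859).

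In the single library of Ribo-Zero Plus alone, the nuclease kit of the K562 kit set, all 6 mRNAs were called higher than undepleted, in a fit that takes its spread from the other groups and so cannot tell the kit from that library. MT-CYB had 1982 CPM against 1328 and 1398 undepleted, which edgeR put at 0.56 ± 0.04 (SE) on the log2 scale (adjusted p = 4.51e-27), and MT-CO2 had 2546 against 1783 and 1795 (0.53 ± 0.04, adjusted p = 3.41e-30). MT-ATP8 differed by 0.42, MT-CO1 by 0.32, MT-CO3 by 0.27 and MT-ATP6 by 0.22, the last with 1962 CPM against 1682 and 1725 (adjusted p = 1.01e-05). Many other genes were called too, with 8.95% of 10078 called higher, 11.7% lower and 20.6% in either direction. In the fit of all 12 libraries 231 genes in place of 2080 were called, and MT-CO3 and MT-ATP6 lost their call (adjusted p = 0.128 and 0.135).

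**Figure D4:**
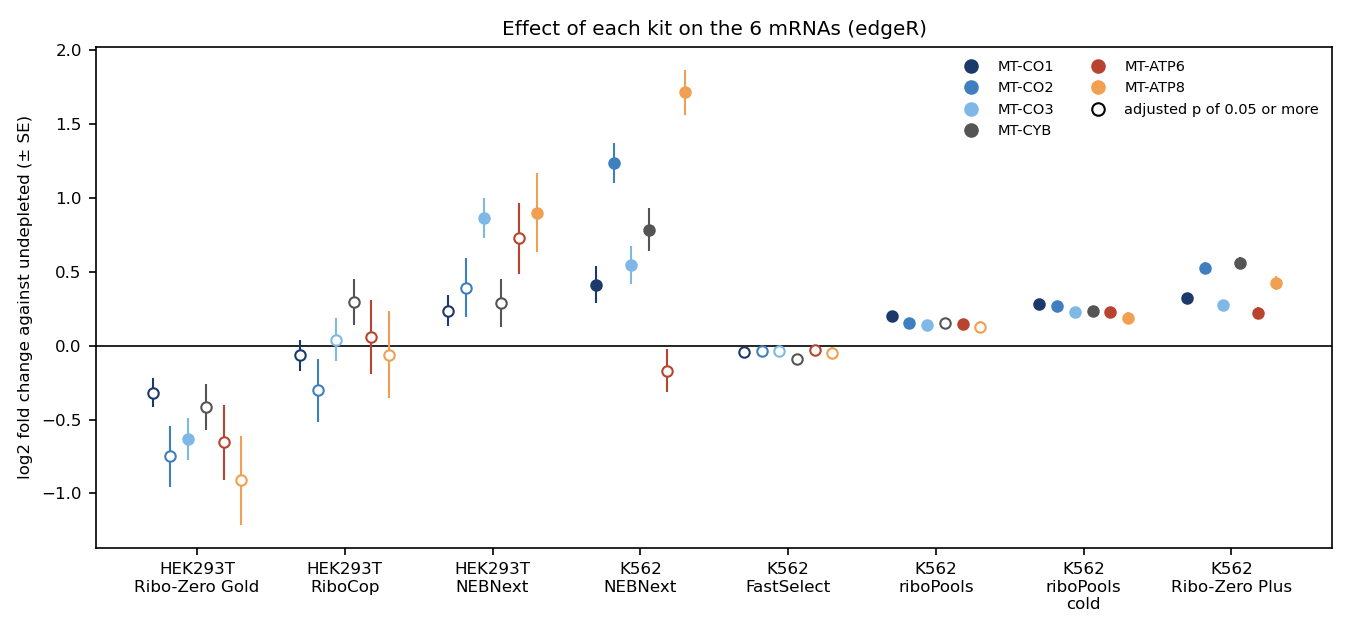
Log2 fold change of each mRNA in 8 comparisons of a kit with undepleted libraries of the same table, from edgeR, with bars of ± 1 SE; filled points have an adjusted p under 0.05. The 6 points lie within 0.09 of each other for FastSelect, riboPools and cold elution, while those of NEBNext in K562 run from -0.17 to 1.71.

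The additions to Ribo-Zero Plus have 1 library each, so their values carry counting intervals and no test. With formaldehyde MT-CYB had 5551 CPM against 1982 with Ribo-Zero Plus alone, a ratio of 2.80 (exact 95% interval 2.57 to 3.05), and with both additions 5032 CPM, a ratio of 2.54 (2.35 to 2.74). Oligos alone gave 1456 CPM, a ratio of 0.735 (0.647 to 0.832). The cytochrome oxidase mRNAs stood at 1.45 to 1.70 times the level of Ribo-Zero Plus alone with formaldehyde and at 1.53 to 2.06 times with both. MT-ATP8 was nearest to no difference, at 1.06 (0.895 to 1.24) with formaldehyde and 1.32 (1.16 to 1.49) with both, and MT-ATP6 was at 1.29 and 1.555. All 6 ratios were above 1 in both formaldehyde libraries, as were 44.5% and 43.6% of genes averaging 100 or more counts, whose median ratios were 0.927 and 0.939. A ratio as high as the lowest of the 6 was found for 39.9% of such genes with formaldehyde and 21.8% with both. With oligos alone 3 of the 6 were above 1, against 46% of such genes, and 74.2% had a ratio as high as the lowest of the 6.

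In HEK293FT the 6 mRNAs stood higher with custom oligos by similar ratios, again with 1 library on each side and no test. MT-ATP6 had 1017 CPM against 776, a ratio of 1.31 (exact 95% interval 1.21 to 1.42), and MT-CO3 had 1486 against 1242, a ratio of 1.20 (1.12 to 1.27). The other 4 lay between these, at 1.22 to 1.30. All 6 were above 1, as were 50.3% of 5225 genes averaging 100 or more counts, whose median ratio was 1.001, and 10.7% of those genes had a ratio as high as the lowest of the 6.

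Ratios between subunits were taken per kilobase. The mRNAs of the 3 cytochrome oxidase subunits were far from equal in most libraries. MT-CO2 stood at 0.525 ± 0.041 (SD, n = 2) of MT-CO1 in undepleted HEK293T, at 1.18 ± 0.012 in the undepleted K562 kit set and at 1.72 (exact 95% interval 1.598 to 1.84) in undepleted HEK293FT. MT-CO3 stood at 0.944 ± 0.088, 1.74 ± 0.009 and 1.24 (1.15 to 1.33) of MT-CO1 in the same order. In each HEK293T library the MT-CO2 ratio was lower than in any library of the other lines.

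These proportions were close to those of undepleted libraries with K562 bead capture, reverse transcription blocking and custom oligos. In the K562 kit set MT-CO2 over MT-CO1 was 1.185 ± 0.020 (SD, n = 2) with FastSelect, 1.14 ± 0.012 with riboPools and 1.17 ± 0.002 with cold elution, and in HEK293FT it was 1.66 (exact 95% interval 1.62 to 1.71) with custom oligos. MT-CO3 over MT-CO1 was between 1.67 and 1.75 in the means of those K562 groups. MT-CO2 over MT-CO1 in HEK293T was 0.390 ± 0.046 with Ribo-Zero Gold and 0.449 ± 0.003 with RiboCop. All 4 of these libraries lay below both undepleted ones, at 0.357 to 0.451 against 0.497 and 0.554. Counting error is wider than these SDs. The 95% intervals were 0.271 to 0.465 and 0.334 to 0.527 with Ribo-Zero Gold and 0.313 to 0.636 and 0.350 to 0.565 with RiboCop. Each overlapped those of both undepleted libraries, 0.338 to 0.712 and 0.407 to 0.743. MT-CO3 over MT-CO1 was 0.744 and 0.760 with Ribo-Zero Gold, below the 1.007 and 0.882 undepleted, while RiboCop, at 0.836 and 1.091, overlapped them.

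Ratios of single subunits also stood apart with the nuclease kits. With NEBNext in HEK293T MT-CO3 over MT-CO1 was 1.45 ± 0.044 (SD, n = 2) against 0.944 ± 0.088 undepleted, with no overlap between libraries. In K562 with NEBNext MT-CO2 over MT-CO1 was 2.03 (exact 95% interval 1.92 to 2.14) against 1.125 (1.001 to 1.26) at 20 to 34 nt and 1.63 (1.496 to 1.77) against 0.971 (0.771 to 1.22) at 20 to 60 nt. MT-CO3 over MT-CO1 there was 1.85 (1.75 to 1.95) against 1.59 (1.44 to 1.75), and 1.58 against 1.57 at the longer range. Ribo-Zero Plus alone had MT-CO2 at 1.36 (1.31 to 1.41) of MT-CO1, above both undepleted libraries, and 1.799 (1.64 to 1.97) with both additions.

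Across complexes, MT-CYB stood at 0.442 to 0.547 of MT-CO1 in the undepleted HEK293T and K562 libraries and at 0.653 (exact 95% interval 0.601 to 0.708) in HEK293FT. With RiboCop in HEK293T it stood at 0.642 and 0.646, above the 0.450 and 0.542 of the undepleted libraries, whereas Ribo-Zero Gold and NEBNext overlapped them. The 95% intervals with RiboCop, 0.497 to 0.824 and 0.544 to 0.764, overlapped those of the undepleted libraries, 0.327 to 0.613 and 0.421 to 0.692. The formaldehyde libraries stood highest, at 1.05 (0.945 to 1.16) and 1.04 (0.945 to 1.14) against 0.635 (0.611 to 0.661) for Ribo-Zero Plus alone. MT-CYB took 21.3% and 18.5% of the counts of the 6 mRNAs in those 2 libraries, against 12.7% with Ribo-Zero Plus alone and 9.27% with oligos.

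For ATP synthase, MT-ATP8 was at 1.91 ± 0.051 (SD, n = 2) times MT-ATP6 per kilobase in the undepleted K562 kit set, and at 1.86 to 1.88 in the means of FastSelect, riboPools and cold elution. Ribo-Zero Plus alone gave 2.19 (exact 95% interval 2.08 to 2.31). NEBNext in K562 gave 8.94 (8.17 to 9.79) against 2.09 (1.77 to 2.47) undepleted at 20 to 34 nt and 5.24 (4.61 to 5.97) against 1.83 (1.265 to 2.63) at 20 to 60 nt. In HEK293T the ratio was 1.97 and 2.69 in the undepleted libraries and 3.995 and 2.255 with NEBNext, on 15 to 89 counts per gene and library. The 95% intervals of the 2 NEBNext libraries, 2.35 to 6.84 and 1.601 to 3.16, lay below the K562 NEBNext ratio at 20 to 34 nt, but the first held that at 20 to 60 nt, and each overlapped those of both undepleted HEK293T libraries. HEK293FT stood at 2.76 (2.47 to 3.09) undepleted and 2.73 (2.63 to 2.84) with custom oligos. Dropping the 46 shared bases from both lengths turns 1.91 into 2.29 in the undepleted K562 kit set and changes every library by the same factor.

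**Figure D5:**
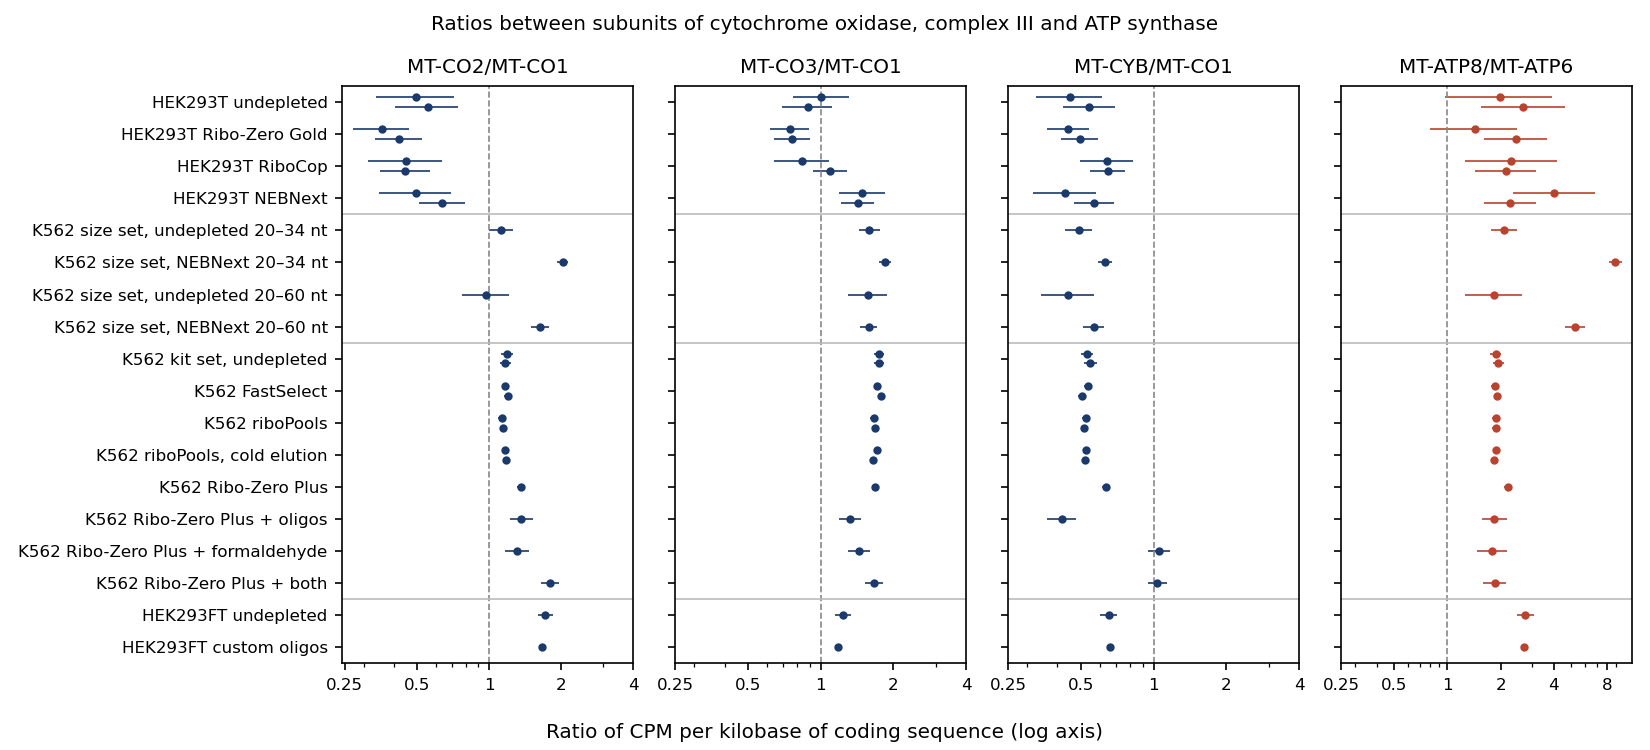
Ratio of CPM per kilobase between pairs of the mRNAs in all 26 libraries (log axis), with exact 95% intervals as bars, which cover counting error only; the dashed line marks equal levels. MT-ATP8 over MT-ATP6 lies at 8.94 and 5.24 in the K562 NEBNext libraries, and MT-CYB over MT-CO1 lies above 1 only in the formaldehyde libraries of Ribo-Zero Plus.

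The nuclear-encoded partners of these proteins were tested in the same fits. Of them, 9 for complex III, 11 for complex IV and 15 for complex V, with Ribo-Zero Gold, RiboCop, FastSelect, riboPools and cold elution 0 were called by edgeR in each list. NEBNext in HEK293T left 2 complex IV subunits called higher and 1 complex III subunit lower, beside 1.5% and 1.75% of all genes. COX7A2, a small subunit of cytochrome oxidase, led the first at 1.185 ± 0.24 (SE, edgeR adjusted p = 8.43e-05), and UQCRB, a ubiquinone-binding subunit of complex III, stood at -0.88 ± 0.25 (adjusted p = 0.0189). In K562, where 1.75% of all genes were called higher and 0.969% lower, NEBNext left 4 complex IV subunits called higher and 1 lower, with COX7A2 at 1.31 ± 0.22 (adjusted p = 4.25e-07), and 1 complex V subunit higher, ATP5G3 (ATP5MC3), which encodes the proton-carrying c subunit, at 0.88 ± 0.15 (adjusted p = 1.05e-06). Against Ribo-Zero Gold, with 2.24% of all genes called higher and 1.84% lower, NEBNext left 1 complex IV subunit higher, COX7A2 at 0.85 ± 0.18 (adjusted p = 0.000221), and 1 complex III subunit lower, UQCRB at -1.23 ± 0.20 (adjusted p = 1.6e-07). The median log2 fold changes of these 3 lists lay between -0.12 and 0.3 for every kit, where those of the 6 mRNAs were 0.56, -0.64, -0.01 and 0.67 for NEBNext in HEK293T, Ribo-Zero Gold, RiboCop and NEBNext in K562.

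Ribo-Zero Plus alone left 2 of 9 complex III, 3 of 11 complex IV and 1 of 15 complex V subunits called higher and 3 of the last lower, shares that stand beside 20.6% of all genes called. The members with the largest change were UQCR10 at 0.55 ± 0.14 (SE, edgeR adjusted p = 0.00144), COX7A2 at 0.27 ± 0.09 (adjusted p = 0.0214) and ATP5E (ATP5F1E) at 0.33 ± 0.11 (adjusted p = 0.021). Between undepleted K562 and HEK293T, 4 of 9, 8 of 11 and 7 of 15 nuclear subunits were called higher and 2, 0 and 1 lower, with 45.5% of all genes called. UQCRH led complex III at 1.62 ± 0.23 (adjusted p = 1.06e-11), COX8A complex IV at 1.51 ± 0.24 (adjusted p = 3.54e-09) and ATP5G3 complex V at 1.44 ± 0.11 (adjusted p = 3.9e-38). The list medians were 0.35, 0.54 and 0.305. Those of the 6 mitochondrial mRNAs and of the 7 for complex I were 2.36 and 3.37, and that of all genes was -0.01. In HEK293FT against HEK293T, 2, 1 and 1 nuclear subunits were called higher and 0 lower, led by UQCRH at 1.02 ± 0.26 (adjusted p = 0.00253), COX7A2 at 0.98 ± 0.21 (adjusted p = 0.000153) and ATP5G2 (ATP5MC2) at 0.51 ± 0.14 (adjusted p = 0.00754).

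Among 13 genes of mitochondrial transcription and translation, 0 were called in the comparisons of HEK293T kits, FastSelect or riboPools. NEBNext in K562 raised 1 of 11 tested, beside 1.75% of all genes. This was SLIRP, the partner of LRPPRC in keeping mitochondrial mRNAs stable, at 0.84 ± 0.24 (SE, edgeR adjusted p = 0.0261). In the Ribo-Zero Plus library 2 of 13 were called lower, beside 11.7% of all genes, with MRPL12 at -0.49 ± 0.18 (adjusted p = 0.042). Undepleted K562 against HEK293T had 3 of 12 higher and 1 lower, beside 22.5% and 23% of all genes, led by TFAM, the packaging factor of mitochondrial DNA, at 1.17 ± 0.25 (adjusted p = 2.08e-05).

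The complex I mRNAs of the mitochondrial genome were called in some of the same comparisons. Of 5 tested in HEK293T, 1 was called lower with Ribo-Zero Gold, beside 0.068% of all genes, MT-ND4 at -1.21 ± 0.29 (SE, edgeR adjusted p = 0.0393), and 2 higher with NEBNext, beside 1.5%, MT-ND4 at 1.12 ± 0.24 (adjusted p = 0.000249). Of 7 in K562, NEBNext left 2 called higher and 1 lower, beside 1.75% and 0.969% of all genes, MT-ND3 at -1.16 ± 0.17 (adjusted p = 1.19e-08). With riboPools 2 were called higher, with cold elution 6 and with Ribo-Zero Plus alone all 7, beside 0.0717%, 0.143% and 8.95% of all genes, up to 0.58 ± 0.07 for MT-ND1 (adjusted p = 2.54e-12). The 6 mRNAs made up 64.0% to 65.9% of all mitochondrially encoded counts in each library of the K562 kit set and 63.9% and 64.5% in the undepleted size-selection libraries, but 72.7% and 69.4% in the NEBNext libraries. In HEK293T they made up 78.8% ± 0.37 (SD, n = 2) undepleted, 82.1% ± 0.30 with Ribo-Zero Gold and 74.7% ± 1.8 with NEBNext. Between undepleted K562 and HEK293T all 7 complex I mRNAs were called higher, beside 22.5% of all genes. Their median log2 fold change was 3.37, above the 2.36 of the 6. For HEK293FT against HEK293T the 2 medians were 1.95 and 1.485. The higher levels were thus not particular to the 6.

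The genes outside the 6 whose kit effects lay nearest to their median were found over the 8 kit comparisons among 272 genes averaging 100 or more counts in each of 3 tables, by the mean absolute difference of log2 fold changes. They were HIST2H2AC at 0.17, RPL39 at 0.18, PCBP1 at 0.20, RPS27 at 0.21 and H3F3A at 0.21. All 5 had log2 fold changes of 0.46 to 0.67 for NEBNext in both lines, beside 0.56 and 0.67 for the median of the 6. For Ribo-Zero Gold, where that median was -0.64, they ran from -0.21 to 0.20. The ranking that picked the 5 used these values, so their closeness to the median is no separate result. No complex I mRNA of mitochondria averaged 100 counts in all 3 tables, so none was ranked, and the 5 named are nearest only among the genes that passed. The 5 complex I mRNAs tested in HEK293T had a median of -0.74 for Ribo-Zero Gold and 0.60 for NEBNext there, nearer to -0.64 and 0.56 than the Ribo-Zero Gold values of the genes named.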

How the data were processed

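The authors deposited 4 tables of raw read counts per coding sequence, with 1 column per library, and 4 matching tables of RPM. The deposited RPM equal each count divided by its column total to within 3.6e-12, so all values here come from the counts. Demultiplexing with CASAVA 1.8, alignment with STAR and the build GRCh38 (hg38) are named in the submitters' processing notes; other settings are not given in the sources used here. Libraries were grouped by the labels.

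CPM is the count scaled to the column total, the same scale as RPM. Fold changes come from edgeR 4.0.16 (R 4.3.3) with TMM factors, filterByExpr at 10 counts and the quasi-likelihood test over all genes of a fit, adjusted by Benjamini-Hochberg and called at 0.05. HEK293T comparisons were fitted on its 8 libraries, K562 kits on 8, Ribo-Zero Plus on 9, the K562 size-selection set on its 4 with a term for size, and cell lines on the 7 undepleted libraries of all tables, from raw counts. DESeq2 1.42.0, other scalings, no filter, a replicate block, other sets of libraries and leaving libraries out were alternatives. Single libraries carry exact 95% intervals. An exact permutation test of 2 against 2 libraries cannot go below p = 0.333 and was not used.

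In simulated data 200 genes, drawn only from those at or above the median level, were changed by 1 on the log2 scale. The fit recovered 67.5% of them for HEK293T NEBNext (4410 genes), 63.5% for K562 NEBNext (3715 genes) and 97.5% for riboPools (9761 genes). It recovered 90.5% for Ribo-Zero Plus alone (10078 genes) and 68.5% for undepleted K562 against HEK293T (5551 genes). False calls made up 4.3%, 8%, 2%, 1.1% and 2.8% of the calls in the same order. The riboPools differences of the mRNAs described here were far smaller, at 0.12 to 0.2 on the log2 scale. Changes that small were not simulated. Sequences and coordinates are from GENCODE 29 on GRCh38, which matched 97.5% of transcripts by versioned identifier. Symbols of 15 complex V subunits were matched through RefSeq synonyms.

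The 6 genes, the pathway lists and the tests were chosen with earlier results of these data known. The genes named are the 6 in every comparison, in each pathway list the called gene with the largest absolute log2 fold change, and the 5 genes nearest to the median of the 6 over the kit comparisons. SciPy 1.17.1 gave the intervals.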

Additional observations from a re-analysis of the deposited data

Results flagged for a closer look

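The interaction test of NEBNext between K562 and HEK293T passed with edgeR, but not with DESeq2, for 2 of the genes named, neither of them among the 6 mRNAs. The sets compared differ in fragment range and preparation as well as in line, and the test does not separate these. MT-ND3, a complex I subunit, had an adjusted p of 0.000394 with edgeR, which cannot be read as a difference between the lines because its counts in HEK293T were near 0. In K562 it fell with NEBNext: the 20 to 34 nt libraries had 428 CPM against 1072 undepleted, and the 20 to 60 nt libraries 631 against 1302. In HEK293T its undepleted libraries had 1 and 0 counts, where a count of 0 allows up to 3, and its NEBNext libraries had 4 and 19, so that its test rests on libraries at or near 0 and no fold change is given. It was left out of the fit of HEK293T alone by the filter on low counts and entered here through its K562 counts. The Ribo-Zero Gold and RiboCop libraries of HEK293T had 6 to 12 counts. ATP5G3, the c subunit of ATP synthase, had an interaction of 1.07 ± 0.22 (SE) on the log2 scale with an adjusted p of 0.00648, and a log2 fold change of 0.88 with NEBNext in K562. With DESeq2 neither gene passed (adjusted p = 0.483 for both). Under the other scalings and with no filter the edgeR adjusted p ran from 5.44e-05 to 0.00064 for MT-ND3 and from 0.000405 to 0.0163 for ATP5G3. Those of MT-ND3 rest on the same counts at or near 0 and add nothing to its test. No group had 4 to 10 libraries, so single libraries were not screened for outlying values.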

How the results depend on the processing

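Of the log2 fold changes of the 6 mRNAs recomputed under the alternatives, 669 counted as unchanged. These kept their direction and their side of the threshold or, where no test remained, moved by less than their error. Another 54 lost a call, 13 gained one and 14 turned direction. The remaining 12, all for NEBNext in K562 with 1 library left out and so without a test, moved by more than their error. Ratios between groups of the share of the library (50 values) and of the subunit ratios (35 values) moved by less than their error. For the subunit ratios this was set beforehand, since the shared bases cancel between groups and leaving out 1 of 2 libraries moves a mean by less than its SD. Values with 1 library left out are likewise no check on the shares, the share ratios or the subunit ratios within a group. Of the shares themselves 21 moved by more and 31 did not, all 21 with another denominator, and of the subunit ratios within a group 38 moved by more and 112 did not, all 38 with the shared bases left out of the lengths. No filter on low counts changed how many of the 6 were called from 2 to 1 for NEBNext in HEK293T, from 1 to 0 for Ribo-Zero Gold, from 1 to 3 for cold against standard elution and from 0 to 1 for the interaction, and how many of all genes from 3 to 1 for Ribo-Zero Gold, from 6 to 3 for 20 to 60 against 20 to 34 nt and from 3 to 6 for cold against standard elution. DESeq2's test called 1 of the 6 for NEBNext in HEK293T, 0 for Ribo-Zero Gold, 1 for riboPools, 0 for cold against standard elution and 1 for the 2 K562 tables. Of all genes DESeq2 called 58 in place of 143 for NEBNext in HEK293T, 1 for Ribo-Zero Gold, 63 in place of 180 for NEBNext against Ribo-Zero Gold, 17 in place of 101 for NEBNext in K562, 0 for the size ranges, 1 for FastSelect, 2 for riboPools, 14 in place of 22 for cold elution, 447 in place of 2080 for Ribo-Zero Plus, 1 in place of 14 for the interaction, 1489 in place of 2523 for K562 against HEK293T, 154 in place of 445 for HEK293FT and 2 in place of 13 for the K562 tables. Scaling to total counts called 60 genes for NEBNext in K562 and 1 for the size ranges, and no term for size called 44. Only both groups in the fit gave 5 genes for Ribo-Zero Gold, and the size-selection table standing for K562 gave 1456 genes against HEK293T. All 12 libraries of the kit table called 0 of the 6 for riboPools, cold elution and their difference, and of all genes 0 for FastSelect, riboPools, cold elution and the difference and 231 for Ribo-Zero Plus. The cause was not tested.

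Leaving out 1 library at a time, the 6 had 1 to 4 calls for NEBNext in HEK293T, 0 for Ribo-Zero Gold, 2 to 6 for NEBNext against Ribo-Zero Gold, 0 to 1 for FastSelect, 0 to 5 for riboPools and 0 to 3 for cold against standard elution. All genes had 56 to 150 calls for NEBNext in HEK293T, 1 for Ribo-Zero Gold, 0 to 1 for RiboCop, 60 to 171 for NEBNext against Ribo-Zero Gold, 1 to 3 for FastSelect, 2 to 9 for riboPools, 13 to 22 for cold elution, 2 to 6 for cold against standard elution and 1271 to 1412 for Ribo-Zero Plus. Log2 fold changes that turned direction this way were, for NEBNext in HEK293T, MT-CO2 (-0.087 to 0.650), MT-CYB (-0.223 to 0.558) and MT-ATP6 (-0.010 to 1.079). For RiboCop they were MT-CO1 (-0.203 to 0.019), MT-CO3 (-0.365 to 0.241), MT-ATP6 (-0.155 to 0.167) and MT-ATP8 (-0.252 to 0.253). For FastSelect they were MT-CO1 (-0.103 to 0.018), MT-CO2 (-0.081 to 0.006), MT-CYB (-0.193 to 0.012), MT-ATP6 (-0.123 to 0.063) and MT-ATP8 (-0.116 to 0.021). MT-ATP6 for NEBNext in K562, which was not called, ran from -0.320 to 0.126 and is not among the 14. Fits that leave 1 library in a group assume that it varies like the others.

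Replicate numbers were shared between groups of 2 only as numbers, with correlations of same-numbered deviations of 0.064 to 0.137 in HEK293T and -0.049 to 0.020 in the kit set. With the replicate number as a block 153 genes were called for NEBNext in HEK293T and 27 for cold elution, and MT-CYB was called with riboPools (adjusted p = 0.0312). Depth limits MT-ATP8 and MT-ATP6 in HEK293T most, and the K562 20 to 60 nt undepleted library.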
